A study of Mus musculus with 6 samples.

Results

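The genes described here act in homologous recombination and the repair pathways and checkpoints that work beside it. A total of 36 genes were named by symbol: 16 of homologous recombination, 6 of the Fanconi pathway, 8 of the checkpoint and replication fork protection, 2 of mismatch repair, 3 of base excision repair and strand break sensing, and Polq. A probe belonged to a gene when its RefSeq accession was that gene's. In this way 44 probes of 35 genes were found among 27229 matched probes of 20656 genes, and Rad51c had no matched probe.

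The study compared RNA from freshly sorted mammary cells of female C57Bl6J mice, with 3 biological replicates of each population and 1 single-color array per replicate. E18.5 fetal cells, taken on embryonic day 18.5, were depleted of CD31, CD45 and Ter119 positive cells and sorted as EpCAM++CD49f+. Adult basal cells, from mice 8–12 weeks old, were sorted as EpCAM+CD49f+ after depletion of the same lineages and of BP-1 positive cells. The comparison addresses how populations that differ in regenerative activity differ in their transcripts. The labels name no genetic change or treatment of either population, and the cells were not cultured. The labels do not say how many animals contributed to a replicate. Both populations are gated mixtures, and in bulk RNA a change in the share of cells that transcribe a gene cannot be told apart from a change in transcript per cell.

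Homologous recombination repairs a broken chromosome by copying the sister chromatid: the ends are resected to single strands, Brca2 readies them for strand exchange with the help of Brca1, Bard1 and Palb2, and helicases and nucleases resolve the joined molecules. The Fanconi pathway handles crosslinks between the strands and hands its intermediates to recombination. The kinases Atr and Atm halt the cell cycle when single strands or breaks persist. Because a sister chromatid is needed, many of these genes are transcribed mainly in cells that are replicating their DNA, and in humans inherited loss of several of them raises the risk of breast cancer.

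Each of the 6 arrays carried 59305 spots for 55681 probes. On any array 76.4% to 83.4% of probes had signal well above background, and such a probe is called detected there. No spot was saturated, and between 104 and 326 spots of an array were left out as outliers. Values are log2 processed signal after quantile normalization. A low-signal filter kept 20442 probes, and a change was called where limma's p, Holm-adjusted over these probes, did not exceed 0.05 and the change was at least 2-fold. A gene with several probes was counted by its brightest tested probe, the one with the highest mean over all 6 arrays. All 35 genes with a probe were detected on the 3 fetal arrays. In the adult replicates 30 were detected on all 3, 2 on some (Fancd2 and Fanci) and 3 on none (Brca1, Brip1 and Clspn). For those 3 genes a fold is given as at least a value, since no adult signal was detected. That value is not a limit over the error of the fit or the choice of processing.

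Of the 34 genes tested, 16 were called higher in E18.5 fetal cells, against a background of 6.03% of all 15730 tested genes. Only Rbbp8 was called higher in adult basal cells, for which the background was 5.21%, and 17 genes were not called. In either direction 17 of the 34 were called, beside 11.2% of all genes. Under Benjamini-Hochberg adjustment 22 were higher and 1 lower in fetal cells, beside 15.8% and 13.9% of all genes. The median log2 fold change, fetal over adult basal, was 2.00 over the 34 genes, also with Brip1 and Clspn at their at-least values, and −0.04 over all genes. It was positive for 29 genes and negative for 4, and Bard1 was at 0.00. The 3 fetal values lay above the 3 adult values for 28 genes and below them for 3. The corresponding shares of all genes were 33.4% and 35.0%.

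**Figure D1:**
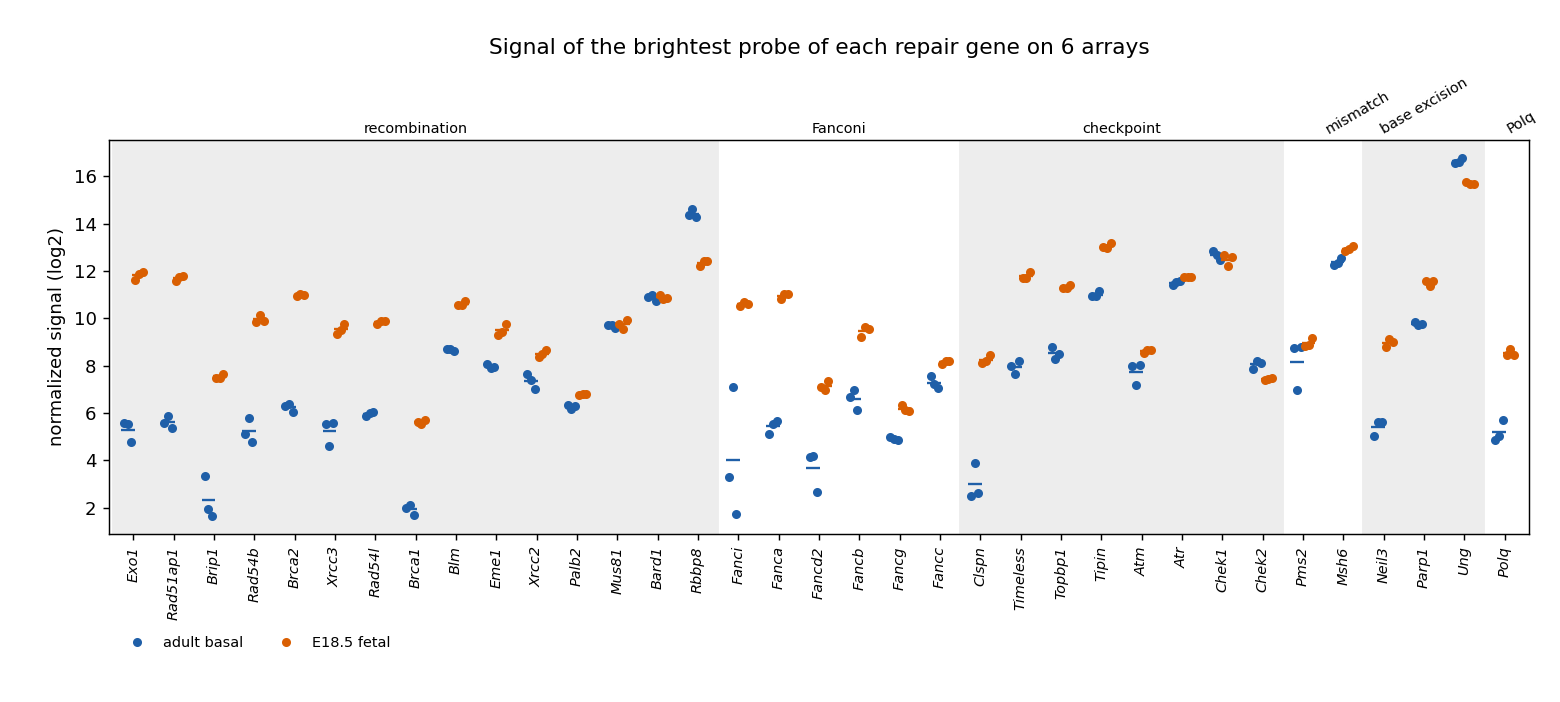
Normalized signal (log2, vertical axis) of the brightest probe of each of 35 repair genes on each array, with adult basal arrays in blue, E18.5 fetal arrays in orange and a short line at each mean (n = 3 per population). Genes are grouped by role and sorted by fold change within a group; most orange points lie above the blue ones, Rbbp8, Ung and Chek2 have them below, and the adult points of Fanci spread from 1.72 to 7.10.

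In the core of the recombination machinery Brca2 was called higher in fetal cells, while Bard1 and Palb2 gave values that depended on the probe. Brca2, which prepares resected ends for strand exchange, had log2 signals of 10.94, 11.01 and 11 in the fetal replicates and 6.32, 6.39 and 6.06 in the adult replicates. The populations were far apart relative to the spread within them. The fetal mean was 26.5-fold higher (log2 fold change 4.73 ± 0.12 SE, limma Holm-adjusted p = 2e-05). Brca1, whose complex with Bard1 promotes resection and Brca2 recruitment, gave 5.64, 5.53 and 5.70 in the fetal replicates and 1.98, 2.13 and 1.70 in the adult replicates. Its only probe stayed under the low-signal filter in both populations and was not among those tested. The fetal signal was at least 12.9-fold higher (95% interval of the log2 fold change 3.35 to 4.02), and without the filter the difference passed (limma Holm-adjusted p = 0.0042).

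Bard1, the partner of Brca1, was measured by 3 probes that gave different answers. The brightest over all 6 arrays gave 10.98, 10.80 and 10.87 in the fetal replicates and 10.90, 10.99 and 10.75 in the adult replicates. These values overlapped, with a log2 fold change of 0.00 (95% interval −0.26 to 0.26). A second Bard1 probe, brighter than the first in the fetal replicates, gave 11.13, 11.33 and 11.22 against 8.81, 8.48 and 8.43, a log2 fold change of 2.65 ± 0.13 SE (limma Holm-adjusted p = 0.0028). The third gave 7.34, 7.16 and 7.35 against 1.64, 1.86 and 1.65, detected on no adult array. For that probe the fetal signal was at least 43.3-fold higher (limma Holm-adjusted p = 4.8e-06). All 3 probes carry the same RefSeq accession, and the data do not show which of them follows the Bard1 transcript.

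Palb2, which bridges Brca1 and Brca2, also differed between probes. Its brightest probe had a log2 fold change of 0.52 ± 0.10 SE and was not called. The other Palb2 probe rose by 2.62 ± 0.14 SE (limma Holm-adjusted p = 0.0045), and was detected on 1 of 3 adult arrays. Brip1, a helicase that binds Brca1, had fetal signals of 7.50, 7.50 and 7.66 and adult signals of 3.34, 1.96 and 1.67. The adult values were spread but all far below the fetal ones. The fetal signal was at least 37.2-fold higher (95% interval of the log2 fold change 4.3 to 6.16, limma Holm-adjusted p = 0.049). That call lay close to the threshold and was lost when any 1 array except adult 1 was left out (adjusted p between 0.19 and 0.66), and with the slide as a block (adjusted p = 0.20). The log2 fold change of Brip1, 5.23 in the reported fit, was 3.24 with an offset of 16 before the logarithm.

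Of 5 genes that assist strand exchange, 4 were called higher in fetal cells, beside 6.03% of all tested genes. Rad51ap1, which stimulates strand pairing, gave 11.56, 11.76 and 11.80 in the fetal replicates and 5.60, 5.86 and 5.39 in the adult replicates. This 68.3-fold difference (log2 fold change 6.09 ± 0.15 SE, limma Holm-adjusted p = 1.6e-05) was among the largest of the 34 genes. The motor protein Rad54l gave 9.78, 9.87 and 9.89 against 5.88, 6.0 and 6.03, which is 14.7-fold (limma Holm-adjusted p = 2.3e-05). Replicates of Rad54l lay within 0.15 of one another in either population. Its relative Rad54b was called by both of its probes. The brighter had a log2 fold change of 4.74 ± 0.24 SE, and the other, detected on no adult array, was at least 28.1-fold higher in fetal cells. Xrcc3, which also acts in strand exchange, gave 9.33, 9.52 and 9.75 against 5.52, 4.60 and 5.59, and was called (19.7-fold, limma Holm-adjusted p = 0.014), but not when any 1 array except adult 2 was left out (adjusted p between 0.051 and 0.20). Its relative Xrcc2 was called by neither of its probes. The brightest was at 1.14 ± 0.18 SE (limma Holm-adjusted p = 1). The second, detected on 1 of 3 adult arrays, was at 3.15 ± 0.33 SE (limma Holm-adjusted p = 0.40, Benjamini-Hochberg-adjusted p = 0.00012), and neither probe's values overlapped.

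At the steps before and after strand exchange the directions parted. Exo1, the exonuclease of long-range resection, which also serves mismatch repair, gave 11.63, 11.86 and 11.96 in the fetal replicates and 5.58, 5.56 and 4.77 in the adult replicates. It had the largest fold among the called genes, 91.5-fold (log2 fold change 6.52 ± 0.23 SE, limma Holm-adjusted p = 0.00026). After normexp background correction its log2 fold change was 4.99, close to the 4.96 of Rad51ap1. Rbbp8, also known as CtIP, which starts resection together with the Mre11 complex, gave 12.20, 12.43 and 12.43 against 14.36, 14.63 and 14.27. Here every fetal value lay below every adult value. Rbbp8 fell by 2.07 on the log2 scale (± 0.13 SE, 4.20-fold lower in fetal cells, limma Holm-adjusted p = 0.017), and it had a 95% interval of −2.38 to −1.75. Its direction held in every alternative, but the call was lost when any 1 array except adult 2 was left out (adjusted p between 0.077 and 0.21).

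Blm, the helicase that dissolves joined molecules, gave 10.57, 10.56 and 10.75 against 8.70, 8.72 and 8.61 and was called (log2 fold change 1.95 ± 0.10 SE, limma Holm-adjusted p = 0.0041). The subunits of the nuclease Mus81–Eme1 did not move together. Eme1 had a log2 fold change of 1.52 ± 0.14 SE (limma Holm-adjusted p = 0.21) with no overlap, whereas the values of Mus81 overlapped, at 0.07 (95% interval −0.22 to 0.36). Among 14 tested recombination genes, 8 were called higher in fetal cells and 1 lower, with a median log2 fold change of 2.91. Of all tested genes 6.03% and 5.21% were called in these directions.

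**Figure D2:**
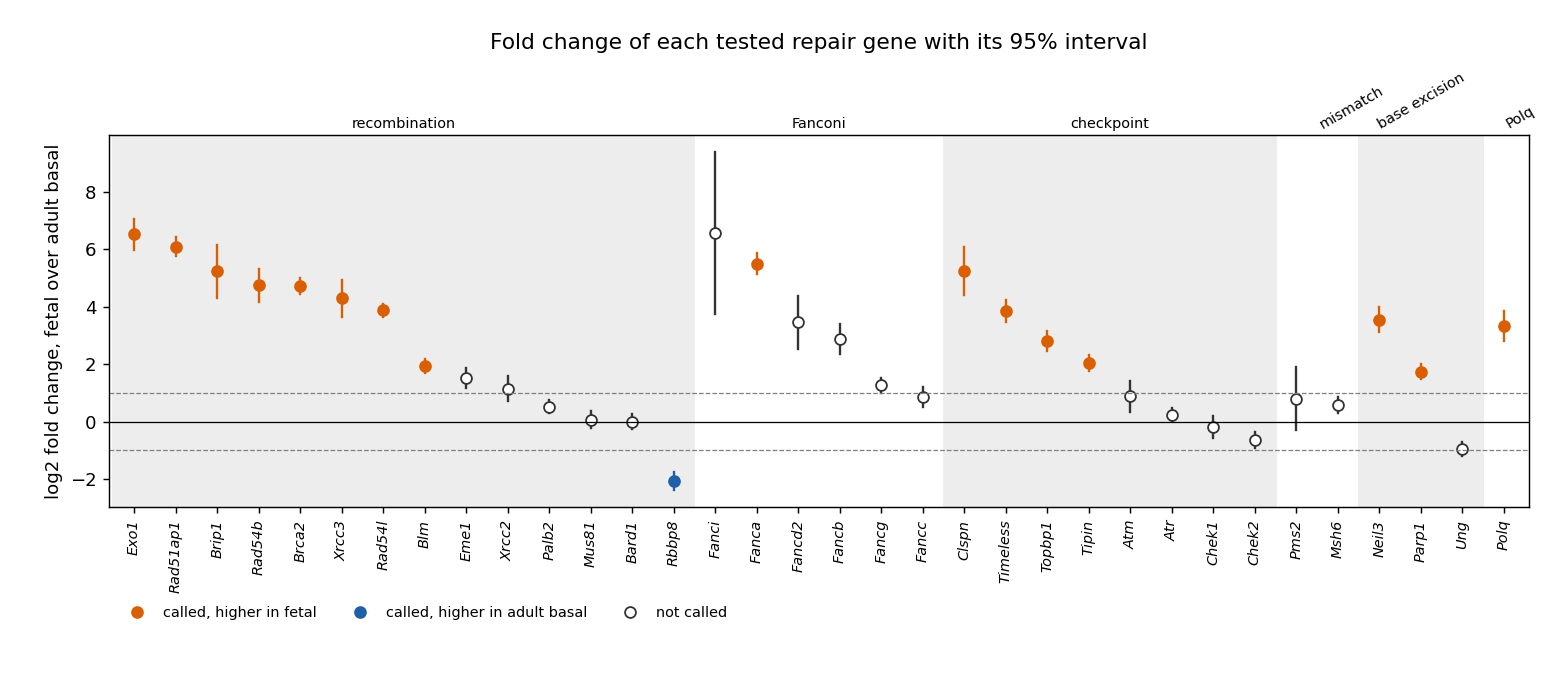
Log2 fold change (fetal over adult basal, vertical axis) with its 95% interval for the brightest probe of each of the 34 tested repair genes, grouped by role. Filled orange points were called higher in fetal cells, the filled blue point (Rbbp8) was called higher in adult basal cells and open points were not called; dashed lines mark a 2-fold change, Brip1 and Clspn were detected on no adult array, and Fanci has the widest interval, from 3.75 to 9.38.

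The Fanconi genes were higher in fetal cells by values, yet mostly missed the threshold. All 6, beside 33.4% of all genes, had fetal values above adult values without overlap. The median log2 fold change of the 6 was 3.17. Only Fanca, a subunit of the core ubiquitin ligase, was called: it gave 10.82, 11.02 and 11.01 in the fetal replicates and 5.13, 5.55 and 5.67 in the adult replicates (45.4-fold, limma Holm-adjusted p = 5.8e-05). Under Benjamini-Hochberg adjustment with the same 2-fold limit 5 of the 6 passed, beside 15.8% of all genes in that direction.

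Fanci and Fancd2 form the complex that the core ligase ubiquitinates. Fanci gave 10.51, 10.68 and 10.61 in the fetal replicates and 3.30, 7.10 and 1.72 in the adult replicates, of which only adult 2 was detected. The log2 fold change of 6.56 therefore had a standard error of 1.2 and was not called (limma Holm-adjusted p = 1). Without adult 2 the probe was detected on no adult array, so that the gained call (adjusted p = 0.0084) sets the fetal signal against background. With all arrays Fanci was called after normexp background correction, at 4.05 (adjusted p = 0.0098). Fancd2 gave 7.12, 6.98 and 7.34 against 4.16, 4.20 and 2.68. It was likewise not called (log2 fold change 3.46 ± 0.39 SE, limma Holm-adjusted p = 0.65), and without adult 3 the value was 2.95 with an adjusted p of 0.0099. With an offset of 16 before the logarithm Fancd2 was called at 2.40 (adjusted p = 0.015). In both genes the adult SD, 2.77 for Fanci and 0.86 for Fancd2, was the larger.

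The other core subunits had smaller differences. Fancb, at 2.88 ± 0.23 SE, narrowly missed the threshold (limma Holm-adjusted p = 0.064). Fancg was at 1.27 ± 0.11 SE (limma Holm-adjusted p = 0.14). Fancc had log2 fold changes of 0.87 and 1.90 by its 2 probes, and neither was called.

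The checkpoint genes split into kinases and the proteins that work with them at the fork. None of the 4 kinases was called by limma with Holm or Benjamini-Hochberg adjustment, and at an unadjusted p under 0.05 Atr and Atm were higher and Chek2 lower in fetal cells. Of all genes 31.8% were higher and 32.0% lower at that threshold. Atr, which answers to single-stranded DNA, gave 11.76, 11.73 and 11.74 in the fetal replicates and 11.39, 11.55 and 11.58 in the adult replicates, a log2 fold change of 0.24 (95% interval 0.01 to 0.47). Atm, which answers to breaks, was at 0.88 and 0.51 by its 2 probes. The effector kinase Chek1 gave 12.66, 12.20 and 12.58 against 12.83, 12.67 and 12.48, and these values overlapped (log2 fold change −0.18, 95% interval −0.55 to 0.19). For Chek2 the order was the opposite of most other genes here, with 7.40, 7.43 and 7.50 in the fetal replicates and 7.87, 8.20 and 8.12 in the adult replicates. Its difference of −0.62 (95% interval −0.90 to −0.35) was under 2-fold. The interval of each kinase's brightest probe leaves room for a change of at most 1.43 on the log2 scale in the fetal direction.

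The 4 fork and adaptor proteins were all called higher in fetal cells, beside 6.03% of all tested genes. Claspin (Clspn), which brings Chek1 to Atr, gave 8.11, 8.20 and 8.46 in the fetal replicates and 2.49, 3.89 and 2.62 in the adult replicates. It was detected on no adult array, and the fetal signal was at least 38.1-fold higher (limma Holm-adjusted p = 0.022). That value was also the fitted fold, and the 95% interval of the log2 fold change was 4.42 to 6.08. The call was lost in 8 of 18 alternatives, among them leaving out any 1 array except adult 2 (adjusted p between 0.15 and 0.34), and after normexp background correction the log2 fold change was 2.31. Topbp1, which activates Atr, gave 11.29, 11.30 and 11.40 against 8.80, 8.30 and 8.49 (6.97-fold, limma Holm-adjusted p = 0.0033). Timeless and Tipin form the complex that steadies stalled forks. Timeless was 14.4-fold higher by its brightest probe, at 11.72, 11.70 and 11.95 against 7.97, 7.65 and 8.20 (limma Holm-adjusted p = 0.00074), and its second probe was called as well. Tipin, with 13.00, 12.98 and 13.18 against 10.95, 10.93 and 11.14, was 4.13-fold higher (limma Holm-adjusted p = 0.0054). The SD of Tipin was 0.11 in either population.

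Neither mismatch repair gene was called by limma with either adjustment, and Msh6 passed at an unadjusted p under 0.05. Msh6, which recognises mismatches, gave 12.84, 12.95 and 13.06 in the fetal replicates and 12.24, 12.33 and 12.54 in the adult replicates. The log2 fold change was 0.58 (95% interval 0.30 to 0.86), under 2-fold, and it was not called. Pms2, a mismatch repair nuclease, gave 8.84, 8.89 and 9.16 against 8.74, 6.96 and 8.79. Adult 2 stood apart from the other adult arrays here, and without it the log2 fold change fell from 0.80 to 0.20. The second Pms2 probe was at 0.18.

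Among genes of base excision and strand break sensing, Parp1, which marks DNA breaks with poly(ADP-ribose), gave 11.56, 11.36 and 11.59 against 9.83, 9.70 and 9.75 (3.35-fold, limma Holm-adjusted p = 0.012). Its call did not hold without any 1 array except adult 2 (adjusted p between 0.081 and 0.22), nor with the slide as a block (adjusted p = 0.062). The glycosylase Neil3 gave 8.79, 9.13 and 9.02 against 5.03, 5.63 and 5.62 (11.7-fold, limma Holm-adjusted p = 0.0042). The call of Neil3 was lost without any 1 fetal array (adjusted p between 0.051 and 0.068). Its log2 fold change was 3.55, and 2.36 after normexp background correction. Ung, which removes uracil from DNA, went the other way, with 15.76, 15.66 and 15.69 in the fetal replicates and 16.56, 16.62 and 16.76 in the adult replicates. Its log2 fold change of −0.94 ± 0.10 SE was just under 2-fold and was not called (limma Holm-adjusted p = 0.47). Polq, the polymerase of theta-mediated end joining, an error-prone alternative to recombination, gave 8.47, 8.70 and 8.46 against 4.88, 5.02 and 5.72. It was called at 10.1-fold (limma Holm-adjusted p = 0.021). The call was lost when any 1 array except adult 3 was left out (adjusted p between 0.099 and 0.32), and with the slide as a block (adjusted p = 0.11).

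Set side by side, median log2 fold changes were 2.91 for 14 recombination genes, 3.17 for 6 Fanconi genes, 1.47 for 8 checkpoint genes, 0.69 for 2 mismatch repair genes and 1.74 for 3 base excision genes. Values within a list spread widely, from −2.07 to 6.52 for recombination and from −0.62 to 5.25 for the checkpoint. Differences between these lists were not tested.

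Of the 8 genes with 2 or more probes, Rad54b and Timeless were called by every probe, and Xrcc2, Fancc, Atm and Pms2 by none. Bard1 and Palb2 were called by some probes but not by the brightest. Counted by any probe, 18 genes were called higher in fetal cells, and 21 of 22 called probes among 43 tested were higher there, beside 5.92% of all tested probes in that direction.

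**Figure D3:**
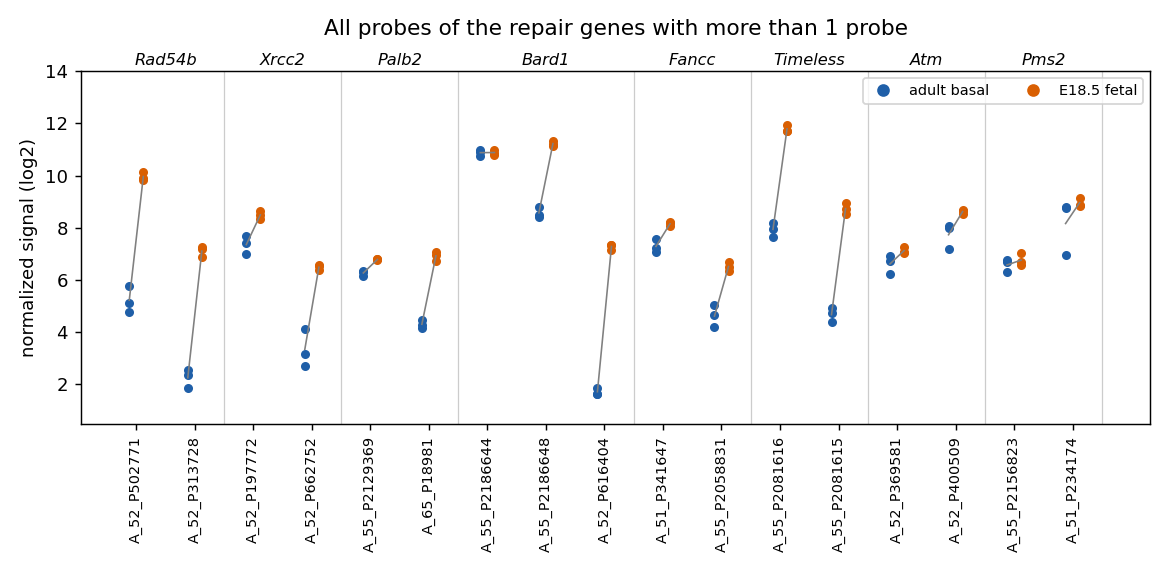
Normalized signal (log2, vertical axis) of every probe of the 8 repair genes with more than 1 probe, on adult basal (blue) and E18.5 fetal (orange) arrays, with a grey line joining the means of the populations (n = 3 each). Both probes of Rad54b and of Timeless were called, whereas the Bard1 probes have log2 fold changes of 0.00 and 2.65 and, for the probe detected on no adult array, a fetal signal at least 43.3-fold higher.

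Replicates were tight on the fetal side. The median SD of the tested genes was 0.12 over the fetal arrays and 0.24 over the adult arrays, compared with 0.12 and 0.18 over all tested probes, and for 27 of 34 genes the adult SD was the larger. Each of the 2 slides held arrays of both populations, with adult 1, adult 3 and fetal 1 on the first. All 17 called genes had the same direction within each slide, and the median log2 fold change was 1.94 on the first slide and 2.10 on the second. With the slide as a block 13 genes were called higher in fetal cells and 1 lower, and Brip1, Parp1 and Polq were lost. Leaving out any 1 fetal array left 6 genes called, Brca2, Rad51ap1, Rad54l, Exo1, Fanca and Timeless. The adjusted p of the lost genes then lay between 0.051 and 0.66, and the log2 fold changes of those 6 genes between 3.76 and 6.64. Without adult 1 the count was 9, with Blm, Clspn, Parp1, Polq, Rad54b, Tipin and Xrcc3 lost (adjusted p between 0.052 and 0.18, Rbbp8 included). Without adult 2 it was 15, with Fanci gained against adult signal at background and Brip1 and Polq lost, and without adult 3 it was 13, with Fancd2 gained and Brip1, Clspn, Parp1 and Xrcc3 lost.

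Repair genes outside the 36 were examined through lists of 107 further genes, of which 102 were tested. A total of 17 were called higher in fetal cells by limma and none lower, 16.7% of those tested against 11.2% of all genes. Under Benjamini-Hochberg adjustment 39 were higher and 2 lower, beside 15.8% and 13.9% of all genes. At an unadjusted p under 0.05, 59 were higher and 14 lower, beside 31.8% and 32.0% of all genes. The median log2 fold change was 0.56.

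The other recombination genes had 7 called of 28, which is 25.0% beside 11.2% of all genes. Fignl1, a regulator of strand exchange, was 31.0-fold higher in fetal cells. The resection nuclease Dna2 was 15.1-fold and Rad51b 6.91-fold higher. The median log2 fold change of the 28 was 0.70. Under Benjamini-Hochberg adjustment 12 were higher and none lower, beside 15.8% and 13.9% of all genes.

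In the other Fanconi list 3 of 8 genes were called, beside 11.2% of all genes. Ube2t, the ubiquitin-conjugating enzyme of the core ligase, was at least 34.7-fold higher in fetal cells, and Fancl, the catalytic subunit, and Fancm, the translocase that recruits the core, were 3.45-fold and 2.80-fold higher. In the other checkpoint list 1 of 10 genes was called, a share near that of all genes: Dbf4, the activator of the replication kinase Cdc7 (8.40-fold). The other mismatch repair list, with 2 of 5 called beside 11.2% of all genes, had a median of 1.37, above that of Msh6 and Pms2. Pms1, a relative of Pms2, was 9.56-fold higher. The glycosylase Mutyh, the flap nuclease Fen1 and the ligase Lig1 were the 3 genes called of 18 in the base excision list, at 7.39-fold, 7.0-fold and 3.54-fold. This is 16.7% of the list, beside 11.2% of all genes.

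Lists of other repair pathways were counted in the same way. Of 11 genes of non-homologous end joining only Prkdc, the DNA-dependent kinase, was called (5.22-fold), which is 9.09% beside 11.2% of all genes, and the median log2 fold change was 0.76. Of 15 genes of nucleotide excision repair none was called by limma with Holm adjustment. By Benjamini-Hochberg adjustment 2 passed in opposite directions, beside 15.8% higher and 13.9% lower of all genes. At an unadjusted p under 0.05, 2 were higher and 6 lower, beside 31.8% and 32.0% of all genes. Their median was 0.06. Of 7 genes of translesion synthesis none was called by limma with Holm adjustment, and 2 passed by Benjamini-Hochberg adjustment in the fetal direction, beside 15.8% of all genes. At an unadjusted p under 0.05, 3 were higher and 1 lower, beside 31.8% and 32.0% of all genes, with a median of 0.22. Differences between lists were again not tested.

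**Figure D4:**
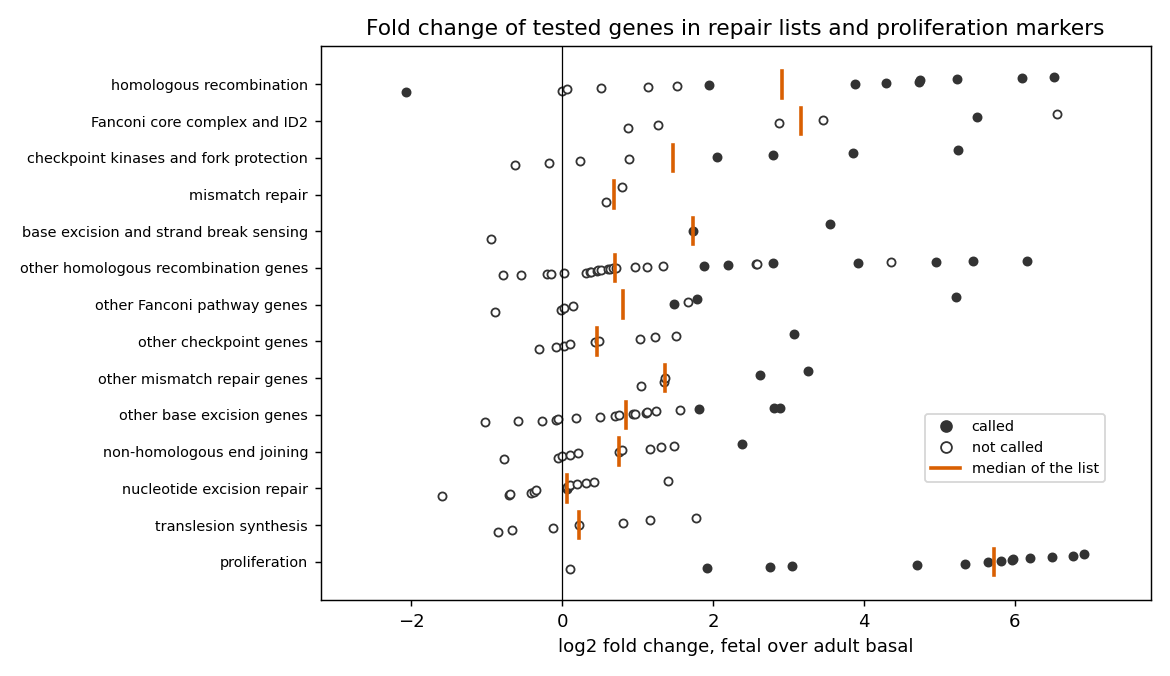
Log2 fold change (fetal over adult basal, horizontal axis) of each tested gene in the lists of repair genes described in the text, with proliferation markers on the lowest line; filled points were called, open points were not, and the orange bar is the median of the list. Medians of the repair lists drawn run from 0.06 for nucleotide excision repair to 3.17 for the Fanconi genes, and that of the proliferation markers is 5.73; Polq, alone in its list, is not drawn.

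Markers of proliferating cells moved with these genes. Of 14 such markers 13 were called higher in fetal cells, all but Tyms, beside 6.03% of all genes, with a median log2 fold change of 5.73. Mki67, the classical marker, gave 14.74, 14.71 and 14.53 in the fetal replicates and 7.60, 9.60 and 8.83 in the adult replicates. The summed linear signal of the list was 222000, 233000 and 232000 in the fetal replicates and 26200, 25300 and 26500 in the adult replicates, its brightest gene was Mcm6, and Aurkb was detected on no adult array. The part of proliferation in the differences of the repair genes was not tested.

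The labelled cell types were checked against their markers. Of 8 basal markers 6, among them Acta2, the brightest, were called higher in adult basal cells, beside 5.21% of all genes. Trp63 was at −0.08 by its brightest probe but 8.37-fold higher in adult basal cells by its other probe (limma Holm-adjusted p = 0.00019). Of 9 luminal markers 3 (Elf5, Kit and Pgr) were called higher in fetal cells and none lower, beside 6.03% and 5.21% of all genes, and the brightest was Krt18. By Benjamini-Hochberg adjustment 2 were lower in fetal cells, Krt19, at −1.22 on the log2 scale, and Esr1 by its brightest probe, which was detected on 1 of 3 fetal arrays. Without overlap 5 luminal markers were higher and 3 lower in fetal cells, beside 33.4% and 35.0% of all genes. Prlr was among the lower ones by its brightest probe, at −0.35 on the log2 scale. Its other probe was called higher in fetal cells, at 1.85 (limma Holm-adjusted p = 0.026). Of the sort antigens, Epcam was 3.68-fold higher in fetal cells (limma Holm-adjusted p = 0.026), Itga6, which encodes CD49f, was at 0.01 on the log2 scale, and Enpep (BP-1) was detected on no array. Pecam1 and Ptprc, which encode CD31 and CD45, overlapped between populations. None of 7 leukocyte genes was called by limma, nor any of 4 endothelial genes. Of these lists 1 and 2 genes respectively passed by Benjamini-Hochberg adjustment and at an unadjusted p under 0.05, in the adult direction, beside 13.9% and 32.0% of all genes. Their summed signals were 34800, 29100 and 26600 against 24600, 34000 and 27200 for leukocytes, with Itgam brightest, and 12200, 10700 and 12500 against 12700, 13600 and 11000 for endothelium, with Kdr brightest. Among 6 fibroblast genes Dcn was called higher in adult basal cells, beside 5.21% of all genes. In that direction 2 passed by Benjamini-Hochberg adjustment and 5 at an unadjusted p under 0.05, beside 13.9% and 32.0% of all genes. Adult values lay above fetal values without overlap for 5, beside 35.0% of all genes. The summed signal was 5430, 5710 and 7020 against 15500, 17900 and 25900, with Col1a2 brightest. No leukocyte or fibroblast list member lacked signal on all arrays of a population, while the endothelial gene Tek was detected on no fetal array. Their part in the differences of the repair genes was not tested.

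Many genes of DNA replication carry binding motifs of the E2F factors, which switch transcription on as cells enter S phase, close to their start. RefSeq promoter windows of 300 bases (GRCm38.p6) were found for 30 of the 36 genes. The letters TTTCCCGC, TTTGGCGC, TTTCGCGC or TTTGCCGC occurred on either strand in 8 of the 30 (26.7%), against 2.26% of 32851 promoters of the same length and, counted per gene as here, 2.6% of 27025 genes. The 8 genes were Brca2, Bard1, Rad51c, Fancg, Chek2, Clspn, Topbp1 and Msh6. Only 3 of them (Brca2, Clspn and Topbp1) were called higher in fetal cells, out of 13 such genes with a window. CCAAT occurred in 15 of the 30 windows, in 37.4% of all promoters and for 41.1% of genes. TTTGAA, the core of the cell cycle homology region, occurred in 3 of the 30, in 17.9% of promoters and for 20.2% of genes. These motifs were chosen after the values had been seen, and a match of letters is no evidence of binding.

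The bases before the start of 3 of these genes are printed because the same 8 letters, in capitals, lie upstream of genes with different values. Brca2 (chr5:150522371-150522620, + strand, match 168 bases before the start) was 26.5-fold higher in fetal cells, Bard1 (chr1:71102973-71103222, − strand, 209 bases before) differed between its probes, and Chek2 (chr5:110839733-110839982, + strand, 152 bases before) was lower.
Brca2: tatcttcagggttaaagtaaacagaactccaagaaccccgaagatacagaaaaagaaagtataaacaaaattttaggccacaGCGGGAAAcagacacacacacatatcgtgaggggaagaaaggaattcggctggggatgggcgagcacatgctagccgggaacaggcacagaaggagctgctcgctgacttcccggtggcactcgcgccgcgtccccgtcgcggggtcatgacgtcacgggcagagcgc
Bard1: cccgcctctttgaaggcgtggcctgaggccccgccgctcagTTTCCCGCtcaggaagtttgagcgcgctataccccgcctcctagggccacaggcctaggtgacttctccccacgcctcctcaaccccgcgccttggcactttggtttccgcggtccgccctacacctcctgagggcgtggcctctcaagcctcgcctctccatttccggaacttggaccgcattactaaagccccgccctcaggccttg
Chek2: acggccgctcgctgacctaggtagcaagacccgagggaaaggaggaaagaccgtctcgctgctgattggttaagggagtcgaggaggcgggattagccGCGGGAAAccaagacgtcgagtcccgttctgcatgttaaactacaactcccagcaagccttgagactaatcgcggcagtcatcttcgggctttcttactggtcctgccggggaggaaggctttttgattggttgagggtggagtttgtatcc
In Bard1 the letters read TTTCCCGC along the gene's strand, and in Brca2 and Chek2 they read as their reverse complement, GCGGGAAA. The windows of these 3 genes thus share the motif in either orientation, while their log2 fold changes by the brightest probe were 4.73, 0.00 and −0.62.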

How the data were processed

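Total RNA from 3 samples of each population was hybridized to Agilent SurePrint G3 Mouse GE arrays. The authors deposited background-subtracted spot intensity on a linear scale from Feature Extraction 11.0.1.1, and a quantile-normalized table of log2 values, used here as an alternative. Each of its columns followed its own array best (correlations between 0.971 and 0.996).

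Control and outlier spots were left out, log2 processed signals of a probe's spots were averaged before quantile normalization of the arrays. Accessions were matched without versions to a RefSeq gene table (GRCm38.p6), which named 27229 of 55681 probes. Probes under a boundary of 5.95 (log2, k-means with 3 clusters, 100 starts, seed 1) in both populations were removed. limma 3.58.1 (lmFit, eBayes, 2-sided) in R 4.3.3 was fitted to all 20442 remaining probes with Holm adjustment over them. The fit was run on simulated data with equal spread in both populations and a lower fold limit. That check therefore does not cover the calls reported here. An exact permutation test of 3 against 3 arrays cannot give a p below 0.10, so none was used. Values of at least N-fold set the brighter population against the higher, per array, of the dim probe's own signal and the lowest signal well above background. They make no allowance for the error of the fit. Where the dim probe's own signal was the higher on every array, they equal the fitted fold. The spread is that between biological replicates as labelled, and 3 arrays per population limit the precision. Python 3.11.15 with pandas 2.3.3, numpy 2.4.6 and matplotlib 3.10.9 made the tables and plots.

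The genes, lists and tests were chosen with earlier results of these data known. Every member is named. In pathway lists the called genes are named, or, with more than 4 calls, the 4 largest detected on all 6 arrays. In marker lists the brightest gene and genes detected on no array of a population are named, with the sort antigens. Mki67, Tyms, Trp63, Elf5, Kit, Pgr, Prlr, Esr1, Krt19 and Dcn were named after their values were seen. Alternatives covered normalization, background correction, filters, adjustment, blocks and leaving out each array. Rad51c and the listed H2afx, Shfm1, Fam175a, Rhno1 and Cd68 had no matched probe, so their signal was not analysed here. Some genes counted in the pathway lists are not reported here by name.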

Additional observations from a re-analysis of the deposited data

How the results depend on the processing

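A total of 18 alternatives were tried. Brca2, Exo1, Fanca, Rad51ap1, Rad54l and Timeless (6 of 17 called genes) kept their call in all of them, and no called gene changed direction in any. Probes called, 2269 in all, numbered 1182 without the low-signal filter, 6130 with Benjamini-Hochberg adjustment and between 948 and 1949 when 1 array was left out. Repair genes called higher in fetal cells, 16 in the reported fit, numbered between 6 and 15 when 1 array was left out (6 without any 1 of the fetal arrays, 9 without adult 1), where fewer arrays leave fewer degrees of freedom, and between 12 and 22 otherwise. The call of Rbbp8, the only one higher in adult basal cells, dropped to 0 without the low-signal filter and between 0 and 1 when 1 array was left out. Replicate numbers did not pair the arrays: deviations of same-numbered arrays correlated at −0.032, 0.093 and 0.049. With the number as a replicate block 1303 probes were called in all, and 12 repair genes were called in the fetal direction and 0 in the adult direction. The median log2 fold change of 2.00 was 2.22 with an offset of 16 before the logarithm, 2.44 with the mean of each gene's probes, and between 1.93 and 2.03 when 1 array was left out. Bard1, at 0.00, was −0.04 after normexp background correction, −0.06 without adult 3 and −0.05 without fetal 1 (between −0.06 and 0.06 when 1 array was left out), and with the mean of its probes it was called at 2.74. Mus81 was between −0.01 (without fetal 3) and 0.17 when 1 array was left out. Of 17 tested genes not called, 8 were called in some alternative. The causes of these changes were not tested. Adult signals near background limit the folds of Brca1, Brip1, Clspn, Fanci and Fancd2. After normexp background correction the log2 fold changes of Exo1, Rad51ap1, Fanca, Rad54b and Rad54l were lower than in the reported fit. They were 4.99, 4.96, 4.22, 3.39 and 2.83.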
